A study of Mus musculus with 22 samples.

Results

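The Csmd family holds 3 mouse genes, Csmd1, Csmd2 and Csmd3, out of the 21718 protein-coding genes with a 5mC value. The members were chosen by name and read at their annotated spans, but the family was put forward with earlier results of these 5mC and 5hmC levels known. The levels were selected on in that sense, so they are given as a description and no test is drawn from them. In cortex the genes had the lowest 5mC and, except for Csmd2 against olfactory bulb, the highest 5hmC, and in cerebellum they had the highest 5mC and the lowest 5hmC. Csmd1 had the widest range, with 5mC at 0.605 ± 0.00946 (SD, n = 3) in cortex and 0.777 ± 0.0119 (SD, n = 2) in cerebellum.

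The Csmd genes encode large membrane proteins built of CUB domains and sushi domains, the latter also known as complement control repeats. Sushi domains are the building block of many regulators of complement, a cascade of plasma proteins that tags surfaces for removal and that in brain takes part in the pruning of synapses by microglia. CSMD1 can limit complement activation, CSMD2 is found at synapses of neurons, and CSMD3 is known for its part in the branching of dendrites. 5mC, methylated cytosine, is the product of the DNA methyltransferases, and TET enzymes oxidize it to 5hmC, which is abundant in neurons and is known to lie in the bodies of expressed neuronal genes.

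The levels came from cortex, olfactory bulb and cerebellum of C57BL/6 mice at 8 weeks of age, with no treatment or transgene. The mice were female, as the study's methods give. All groups share that strain and age, and the replicates are from independent mice by the study's methods, though the labels call them technical. 5mC was read by oxBS-seq in 3 cortex, 2 olfactory bulb and 2 cerebellum libraries, and 5hmC by TAB-seq in 3 libraries per tissue. Whole tissues were used, with the hippocampus left out of the cortex, so a level is the mean over all cell types of the tissue and a change in the mix of cells cannot be told apart from a change within a cell type. In oxBS-seq 5hmC is oxidized before bisulfite conversion, which leaves 5mC alone to be read as C, and in TAB-seq 5hmC is protected by a glucose while 5mC is oxidized, which leaves 5hmC alone to be read as C. The authors deposited fractions from 0 to 1, 5mC in 26327 bins of 100 kb and 5hmC in 2641 bins of 1 Mb, with no read counts. The depth behind a bin is thus unknown, and the SD between libraries is the only error.

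Csmd1 (ENSMUSG00000060924.15) lies at chr8:15892537-17535586 of mm10 on the minus strand and spans 1643050 bases. It overlaps 18 bins of 100 kb, 16 of them wholly inside the gene, and 3 bins of 1 Mb. Csmd2 (ENSMUSG00000028804.20) lies at chr4:127987857-128567656 on the plus strand, spans 579800 bases and overlaps 7 bins of 100 kb and 2 of 1 Mb. Csmd3 (ENSMUSG00000022311.15) lies at chr15:47580637-48792063 on the minus strand, spans 1211427 bases and overlaps 13 bins of 100 kb and 2 of 1 Mb. Together the genes overlap 38 bins of 100 kb and 7 bins of 1 Mb, and every one of the 38 bins had a level above 0 and below 1 in each library. The small coding gene Hmgb4 lies inside Csmd2, and no other coding gene overlaps any of the members.

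The genes share an uneven layout of exons. The longest transcripts have 70 exons in Csmd1 and 71 each in Csmd2 and Csmd3. Only 3 of the exons of Csmd1 lie in the 5′ part of the gene, up to its middle, and 67 lie in the 3′ part. The split was 6 and 65 in Csmd2 and 10 and 61 in Csmd3. The exons of these transcripts cover 14182 bases in Csmd1, 13555 in Csmd2 and 13022 in Csmd3. By bases both parts of each gene are therefore nearly all intron. The members differ in CpG content. The bins of Csmd1 held 5.84 CpG sites per kb, those of Csmd2 12 and those of Csmd3 4.37, and the median over all bins was 7.53.

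For a view of the sequence that both assays read, 1 stretch of 150 bases is shown per gene, from the 100 kb bin of that gene with the largest difference in 5mC between cerebellum and cortex. Each is the most CpG-dense stretch of its bin outside annotated exons and masked repeats, it lies in an intron, and it is written on the plus strand of GRCm38 with each CpG in capitals. The stretches lie at chr8:17413937-17414086, chr4:128271235-128271384 and chr15:48155793-48155942.
Csmd1: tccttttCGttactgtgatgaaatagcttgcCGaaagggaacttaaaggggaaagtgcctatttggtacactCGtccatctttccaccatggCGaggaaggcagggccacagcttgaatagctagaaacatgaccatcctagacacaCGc
Csmd2: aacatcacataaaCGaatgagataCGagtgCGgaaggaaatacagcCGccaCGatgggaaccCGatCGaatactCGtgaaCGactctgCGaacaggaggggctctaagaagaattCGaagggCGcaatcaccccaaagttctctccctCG
Csmd3: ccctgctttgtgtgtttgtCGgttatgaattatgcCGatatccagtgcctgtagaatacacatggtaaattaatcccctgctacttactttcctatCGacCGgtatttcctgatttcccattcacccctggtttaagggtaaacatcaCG
The stretches hold 5, 13 and 5 CpG sites in the order given, where the mean over their bins was 0.827, 1.58 and 0.539 per 150 bases. No level is given for these stretches, because the deposited values are means over whole bins.

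The 5mC level of Csmd1, as the mean over its 18 bins, was 0.611, 0.611 and 0.594 in the cortex libraries. It was 0.730 and 0.728 in the olfactory bulb and 0.785 and 0.768 in the cerebellum. The tissues did not overlap, and the cortex libraries stood well below the others. Olfactory bulb was higher than cortex by 0.124 ± 0.00954, cerebellum higher than cortex by 0.172 ± 0.0152, and cerebellum higher than olfactory bulb by 0.0477 ± 0.0120, where the error of a difference is the root of the summed squared SDs.

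The 5mC level of Csmd2 was 0.638, 0.629 and 0.623 in the cortex libraries. It was 0.693 and 0.695 in the olfactory bulb and 0.760 and 0.741 in the cerebellum. The order of the tissues was that of Csmd1, again with no overlap. The steps from cortex were smaller, at 0.0644 ± 0.00775 to olfactory bulb and 0.121 ± 0.0158 to cerebellum. The step from olfactory bulb to cerebellum was 0.0562 ± 0.0139, beside 0.0477 ± 0.0120 in Csmd1.

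The 5mC level of Csmd3 was 0.687, 0.688 and 0.664 in the cortex libraries. It was 0.731 and 0.724 in the olfactory bulb and 0.793 and 0.780 in the cerebellum. The tissues did not overlap here either. Csmd3 had the highest cortical 5mC of the family and the smallest step from cortex to olfactory bulb, 0.0475 ± 0.0144, with 0.107 ± 0.0166 from cortex to cerebellum and 0.0594 ± 0.0105 from olfactory bulb to cerebellum.

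Part of these differences is shared by the genome. The mean over all 25664 bins of 100 kb was 0.677 ± 0.0147 (SD, n = 3) in the cortex, 0.707 ± 0.00286 (SD, n = 2) in the olfactory bulb and 0.731 ± 0.0114 (SD, n = 2) in the cerebellum. The median bin was 0.0307 higher in olfactory bulb than in cortex, 0.0585 higher in cerebellum than in cortex and 0.0248 higher in cerebellum than in olfactory bulb, which on the log2(level/(1 − level)) scale is 0.22, 0.43 and 0.19. With each library centred on its own median, Csmd1 had a difference of 0.0918 ± 0.00574 between olfactory bulb and cortex, 0.115 ± 0.00582 between cerebellum and cortex and 0.0234 ± 0.00102 between cerebellum and olfactory bulb. The centred differences in the same order were 0.0323 ± 0.0106, 0.0642 ± 0.0106 and 0.0319 ± 0.00394 for Csmd2, and 0.0154 ± 0.00351, 0.0505 ± 0.00220 and 0.0350 ± 0.00355 for Csmd3. The third cortex library of oxBS-seq had a lower mean over all bins, 0.660, than the other cortex libraries, 0.684 and 0.687, and it was also the lowest of the cortex libraries in each of the 3 genes. Leaving out any 1 library moved no 5mC difference of a gene by more than its error.

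**Figure D1:**
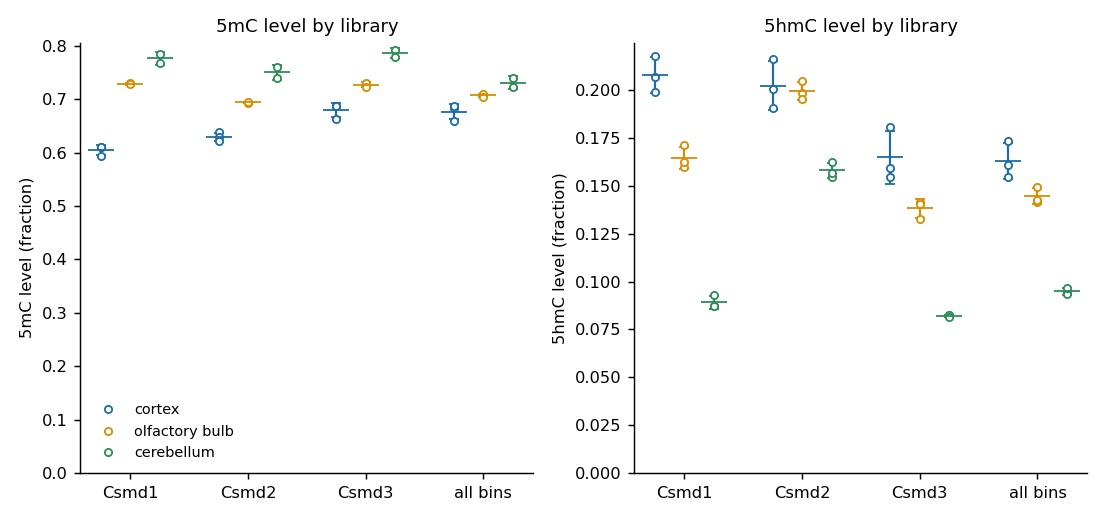
5mC (left) and 5hmC (right) level as a fraction, for each Csmd gene as the mean over its bins and for all bins of the genome. Each point is 1 library, the horizontal bar is the tissue mean and the error bar is the SD. Cortex lies below olfactory bulb and cerebellum in 5mC for each gene, and cerebellum lies lowest in 5hmC.

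The limma test over all 100 kb bins put these differences beside those of the genome. In olfactory bulb against cortex 33 of the 38 bins of the family passed as higher, where 37.6% of all bins did, and 0 passed as lower, where 2.18% of all bins did. In cerebellum against cortex all 38 passed as higher (71.9% of all bins) and 0 as lower (4.44%). In cerebellum against olfactory bulb 31 passed as higher (35.3% of all bins) and 0 as lower (7.69%). In none of the comparisons did a bin of the family reach an unadjusted p below 0.05 in limma as lower. The contrasts are those the family was put forward on, so nothing is read from the counts. The bins of a gene shift together within a library and are not replicates, and limma gave nearly the same standard error to each bin. The last count fell to 17 without the first olfactory bulb library, to 18 without the second and to 16 without the first cerebellum library, and the share of all bins fell with it, to 22.9%, 20.1% and 17%. With each library centred, 22, 37 and 17 of the 38 bins passed as higher in the 3 comparisons, where 8.81%, 25.7% and 22.1% of all bins did, and 0 as lower, where 9.9%, 24.3% and 21.3% did.

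By gene, the bins that did not pass were placed unevenly. All 18 bins of Csmd1 passed in both comparisons with cortex, and in cerebellum against olfactory bulb 13 passed. The 5 that did not lie in the 3′ part of the gene. In Csmd2, 6, 7 and 6 of the 7 bins passed in the order given above. In Csmd3, 9, 13 and 12 of the 13 bins passed, and 1 of the 4 that missed in olfactory bulb against cortex holds the start of the gene.

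Along Csmd1 the cortex profile fell at the start of the gene and rose towards its end. The 100 kb bin with the lowest 5mC was that with the start of the gene, chr8:17500001-17600000. Only 35586 bases of that start bin lie in the gene, so its value is mostly that of the flank. The start bin had 0.531, 0.552 and 0.526 in the cortex libraries, 0.653 and 0.639 in the olfactory bulb and 0.747 and 0.685 in the cerebellum. The bin with the highest 5mC by the mean of the tissues was that with the end of the gene, chr8:15800001-15900000, with 0.715, 0.693 and 0.671 in cortex, 0.756 and 0.778 in the olfactory bulb and 0.787 and 0.771 in the cerebellum. Only 7464 bases of that end bin lie in the gene, so its value is mostly that of the flank. That bin also had the smallest difference from cortex, 0.0734 for olfactory bulb and 0.0859 for cerebellum. The tissues still did not overlap between cortex and the others.

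The largest differences of Csmd1 from cortex lay in its 5′ part, which holds few exons. In chr8:17400001-17500000, which holds no exon and the Csmd1 stretch printed above, cortex had 0.553, 0.534 and 0.553, olfactory bulb 0.714 and 0.704 and cerebellum 0.795 and 0.792. The difference between cerebellum and cortex there was 0.247, against a range of 0.0859 to 0.247 and a median of 0.162 over the gene's bins. In the next bin, chr8:17300001-17400000, also without an exon, cortex had 0.591, 0.570 and 0.536 and olfactory bulb 0.766 and 0.740, the largest difference between them at 0.188. Cerebellum and olfactory bulb were furthest apart in chr8:17000001-17100000, by 0.0864, and nearest in chr8:16100001-16200000, by 0.00705, where their libraries overlapped.

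The bins of Csmd2 were more alike. Its lowest bin by the mean of the tissues was chr4:128000001-128100000, the first wholly inside the gene, with 0.614, 0.581 and 0.599 in cortex, 0.677 and 0.675 in the olfactory bulb and 0.738 and 0.722 in the cerebellum. Its highest was the end bin, chr4:128500001-128600000, which holds 27 exons, with 0.742, 0.745 and 0.704 in cortex, 0.763 and 0.783 in the olfactory bulb and 0.822 and 0.807 in the cerebellum. Of that end bin, 67656 bases lie in Csmd2. The bin had the smallest difference between cerebellum and cortex, 0.0842, as did the end bin of Csmd1, which is mostly flank.

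The largest difference of Csmd2 between cerebellum and cortex was 0.160, in chr4:128200001-128300000, the bin of the printed stretch and of Hmgb4. Cortex had 0.612, 0.577 and 0.586 there, olfactory bulb 0.666 and 0.664 and cerebellum 0.768 and 0.736. Olfactory bulb and cortex were furthest apart in chr4:128400001-128500000, by 0.0874, and nearest in the bin with the start of the gene, chr4:127900001-128000000, by 0.0324. In that start bin the libraries of cortex, 0.615, 0.646 and 0.602, overlapped with those of olfactory bulb, 0.663 and 0.644. Only 12144 bases of the start bin lie in Csmd2, so its value is mostly that of the flank. Cerebellum and olfactory bulb were nearest in chr4:128100001-128200000, by 0.0278.

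Csmd3 had the bin with the lowest 5mC of the family in each tissue. The bin with its start, chr15:48700001-48800000, had 0.525, 0.562 and 0.493 in cortex, 0.578 and 0.547 in the olfactory bulb and 0.654 and 0.644 in the cerebellum. Cortex and olfactory bulb overlapped there, and cerebellum stood above both. The end bin, chr15:47500001-47600000, was again the highest by the mean of the tissues. It had 0.784, 0.765 and 0.763 in cortex, 0.812 and 0.806 in the olfactory bulb and 0.828 and 0.817 in the cerebellum. It again had the smallest difference between cerebellum and cortex, 0.0518. Only 19364 bases of this bin lie in Csmd3, so its value is mostly that of the flank.

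The largest differences of Csmd3 from cortex, 0.0684 for olfactory bulb and 0.139 for cerebellum, lay in chr15:48100001-48200000 near the middle of the gene. Cortex had 0.680, 0.701 and 0.629 in that bin, olfactory bulb 0.753 and 0.724 and cerebellum 0.811 and 0.807. Olfactory bulb was nearest to cortex in chr15:47900001-48000000, by 0.0244. Cerebellum was furthest from olfactory bulb in chr15:47700001-47800000, by 0.0889, and nearest in the end bin, by 0.0138.

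**Figure D2:**
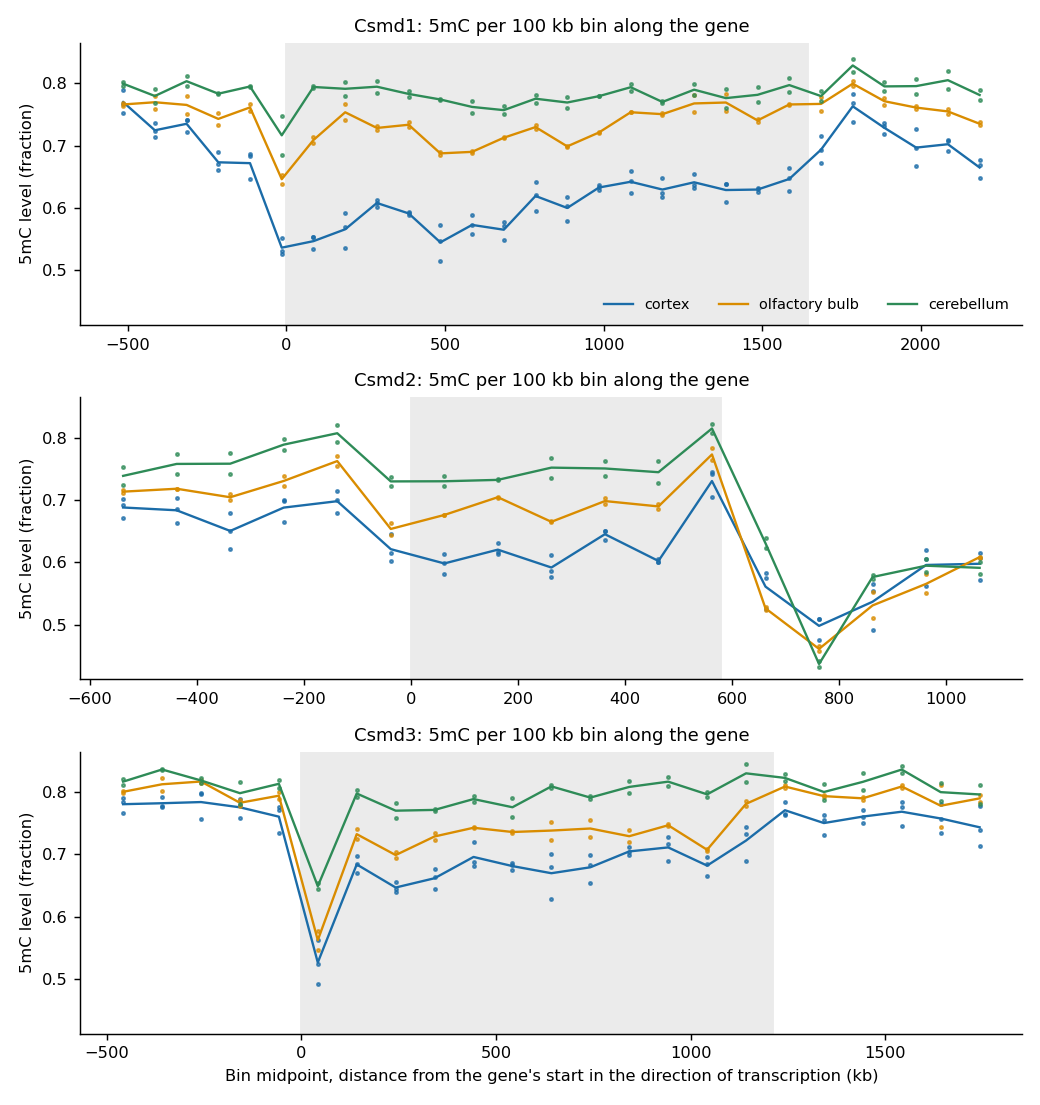
5mC level (fraction) of each 100 kb bin against the distance of its midpoint from the start of the gene (kb), with 500 kb flanks. Points are libraries, lines are tissue means and the grey band is the gene. The cortex line of Csmd1 drops over the gene while the cerebellum line is nearly level apart from the bin with its start, and Csmd3 has a dip in the bin with its start in each tissue.

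The 5′ part of each gene, up to its middle, had a lower 5mC than the 3′ part in every library. The difference was largest for Csmd1 in cortex, with -0.0704, -0.0639 and -0.0636, a mean of -0.0659 ± 0.00382 (SD, n = 3). It was -0.0382 ± 0.00481 (SD, n = 2) in the olfactory bulb and -0.00985 ± 0.00126 (SD, n = 2) in the cerebellum, with no overlap between the tissues. The cerebellum minus cortex difference was thus 0.1996 ± 0.0152 in the 5′ part of Csmd1 and 0.144 ± 0.0155 in its 3′ part.

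For Csmd2 the 5′ part differed by -0.0514 ± 0.00542 in cortex, -0.0456 ± 0.0129 in the olfactory bulb and -0.0339 ± 0.00612 in the cerebellum, where the olfactory bulb libraries overlapped with both other tissues. For Csmd3 the values were -0.0563 ± 0.0117, -0.0502 ± 0.00239 and -0.0518 ± 0.00214 in the same order, and all tissues overlapped. The differences were smaller without the bins that hold the start and the end of the genes, less so in Csmd1 in cortex than in Csmd2 and Csmd3. Over bins wholly inside the gene the cortex value was -0.0545 ± 0.00136 in Csmd1, -0.0203 ± 0.0121 in Csmd2 and -0.0209 ± 0.0160 in Csmd3. Over the same bins it was -0.0278, -0.0122 and -0.0129 in the olfactory bulb and -0.00322, -0.00948 and -0.0278 in the cerebellum for Csmd1, Csmd2 and Csmd3.

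Against the 500 kb on either side, Csmd1 and Csmd3 were low in 5mC. In Csmd1 the difference between gene and flanks was -0.113, -0.109 and -0.101 in the cortex libraries, -0.0330 and -0.0340 in the olfactory bulb and -0.0187 and -0.0206 in the cerebellum. The flanks themselves were higher in cerebellum than in cortex by 0.0835 ± 0.0185, while the gene was higher by 0.172. With flanks of 1 Mb the cortex value of Csmd1 was -0.0868 ± 0.00368, that of olfactory bulb -0.00378 ± 0.00206 and that of cerebellum turned to 0.0110 ± 0.000434. No coding gene lies within 500 kb of Csmd1 or of Csmd3.

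In Csmd3 the difference between gene and flanks was -0.0940, -0.0825 and -0.0831 in cortex, -0.0621 and -0.0767 in the olfactory bulb and -0.0293 and -0.0237 in the cerebellum. The order of the tissues was that of Csmd1, with no overlap. The flanks of Csmd3 were the highest of the family, 0.766 ± 0.0175 (SD, n = 3) in cortex and 0.813 ± 0.0133 (SD, n = 2) in cerebellum.

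Csmd2 went the other way. Its difference from the flanks was 0.00534, -0.00512 and 0.0302 in the cortex libraries, which lie on both sides of 0, 0.0572 and 0.0672 in the olfactory bulb and 0.0846 and 0.0804 in the cerebellum. The direction rests on the flank 3′ of the gene, where each of the 5 bins holds a coding gene, among them Phc2, a Polycomb protein, and Zfp362, and where 5mC was as low as 0.498, 0.461 and 0.437 in cortex, olfactory bulb and cerebellum. Without flank bins that hold a coding gene, which leaves the 5 bins before its start, Csmd2 differed from its flank by -0.0516 ± 0.0132, -0.0315 ± 0.000697 and -0.0196 ± 0.00592 in the same order.

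**Figure D3:**
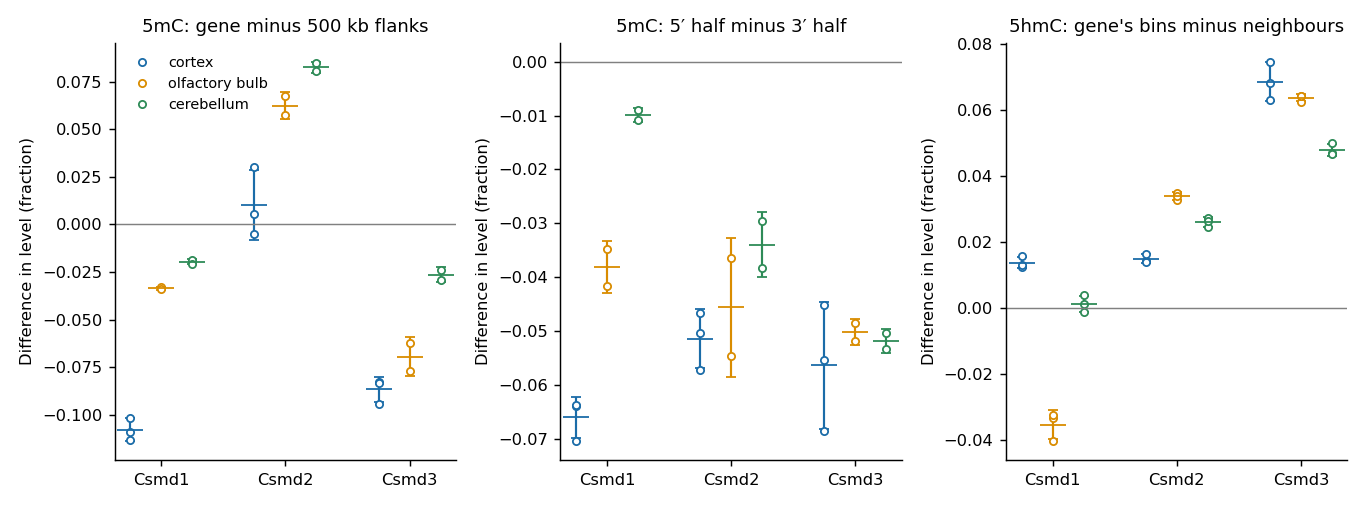
Differences in level (fraction) within libraries for each Csmd gene, by tissue: 5mC of the gene minus its 500 kb flanks (left), 5mC of the 5′ part minus the 3′ part (middle) and 5hmC of the gene's 1 Mb bins minus the bin on either side (right). Points are libraries, bars are means and SDs, and the line marks 0. Csmd1 and Csmd3 lie below 0 on the left and Csmd2 above or at it, and every library of every gene lies below 0 in the middle.

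The 5hmC level of Csmd1, over its 3 bins of 1 Mb, was 0.207, 0.218 and 0.199 in the cortex libraries. It was 0.160, 0.171 and 0.163 in the olfactory bulb and 0.0871, 0.0875 and 0.0930 in the cerebellum. The tissues did not overlap. The difference was -0.0434 ± 0.0113 for olfactory bulb minus cortex, -0.119 ± 0.0101 for cerebellum minus cortex and -0.0754 ± 0.00682 for cerebellum minus olfactory bulb.

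The 5hmC level of Csmd2, over its 2 bins, was 0.201, 0.216 and 0.191 in cortex, 0.199, 0.205 and 0.196 in the olfactory bulb and 0.155, 0.157 and 0.163 in the cerebellum. Cortex and olfactory bulb overlapped, with a difference of -0.00268 ± 0.0137. Cerebellum lay below both, with differences of -0.0444 ± 0.0135 from cortex and -0.0417 ± 0.00622 from olfactory bulb.

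The 5hmC level of Csmd3, over its 2 bins, was 0.159, 0.181 and 0.155 in cortex, 0.133, 0.142 and 0.141 in the olfactory bulb and 0.0824, 0.0824 and 0.0813 in the cerebellum. The tissues did not overlap, and the cerebellum libraries were nearly equal. The differences were -0.0264 ± 0.0148 between olfactory bulb and cortex, -0.0829 ± 0.0140 between cerebellum and cortex and -0.0565 ± 0.00501 between cerebellum and olfactory bulb.

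5hmC also fell over the whole genome, from a mean over all bins of 0.163 ± 0.00946 (SD, n = 3) in the cortex to 0.145 ± 0.00431 (SD, n = 3) in the olfactory bulb and 0.0949 ± 0.00176 (SD, n = 3) in the cerebellum. The median bin differed by -0.0198, -0.0708 and -0.0498 in olfactory bulb against cortex, cerebellum against cortex and cerebellum against olfactory bulb, or by -0.24, -0.97 and -0.72 on the log2(level/(1 − level)) scale. With each library centred on its median, Csmd1 was still lower, with -0.0206 ± 0.00166, -0.0373 ± 0.00164 and -0.0167 ± 0.00193. Csmd2 then turned to higher, by 0.0201 ± 0.00330, 0.0372 ± 0.00347 and 0.0170 ± 0.00292. Csmd3 was left within its error, at -0.00361 ± 0.00596, -0.00135 ± 0.00509 and 0.00226 ± 0.00482.

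In limma over the 1 Mb bins, 5 of the 7 bins of the family passed as lower in olfactory bulb against cortex, where 67.7% of all bins did, and 0 as higher (3.25% of all bins). Both bins of Csmd2 were those that did not pass. All 7 passed as lower in cerebellum against cortex (97.6% of all bins) and in cerebellum against olfactory bulb (91.8%), and 0 as higher (0.426% and 1.2%). None reached an unadjusted p below 0.05 in limma as higher. With each library centred, 2 bins passed as higher and 2 as lower in olfactory bulb against cortex, 2 and 4 in cerebellum against cortex and 3 and 3 in cerebellum against olfactory bulb. The shares of all bins were then 36.2% higher and 33% lower, 50.3% and 40.1%, and 50.9% and 39.1%. As for 5mC, the family was put forward on these contrasts and nothing is read from the counts.

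Single bins showed how far the genes fill them. The bin chr8:16000001-17000000 lies wholly inside Csmd1. Its 5hmC was 0.236, 0.248 and 0.230 in cortex, the 19th highest of the 2581 bins with a level, 0.175, 0.187 and 0.177 in the olfactory bulb and 0.0878, 0.0884 and 0.0896 in the cerebellum. The fall from cortex to cerebellum, -0.149, was the 3rd largest of those bins, and the fall from cortex to olfactory bulb, -0.0582, the 12th largest. The bin with the start of Csmd1, of which 53.6% lies in the gene, had 0.207 ± 0.0119 in cortex, 0.169 ± 0.00561 in the olfactory bulb and 0.0910 ± 0.00195 in the cerebellum (SD, n = 3 each). The bin with its end, of which 10.7% lies in the gene, had 0.179, 0.146 and 0.0880 in the same order.

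For Csmd2, the bin chr4:128000001-129000000, of which 56.8% lies in the gene, had 0.224, 0.242 and 0.213 in cortex, 0.220, 0.230 and 0.218 in the olfactory bulb and 0.184, 0.185 and 0.193 in the cerebellum. It ranked 62nd, 76th and 53rd from the top in the tissues, so it was high in each. The other bin, of which 1.21% lies in the gene, had 0.178, 0.177 and 0.129 and says little about Csmd2 itself. Over bins at least 50% covered by the gene, Csmd2 differed by -0.0351 ± 0.00796 between cerebellum and olfactory bulb.

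For Csmd3, the bin chr15:48000001-49000000, of which 79.2% lies in the gene, had 0.186, 0.205 and 0.179 in cortex, 0.158, 0.163 and 0.162 in the olfactory bulb and 0.106, 0.106 and 0.105 in the cerebellum. The bin with its end, of which 41.9% lies in the gene, had 0.140 ± 0.0147 in cortex, 0.116 ± 0.00708 in the olfactory bulb and 0.0582 ± 0.000300 in the cerebellum (SD, n = 3 each). Its neighbouring bins without the gene were far lower, at 0.0934 and 0.0993 in cortex and 0.0300 and 0.0384 in cerebellum. The bins of Csmd3 exceeded those neighbours by 0.0686 ± 0.00579, 0.0637 ± 0.00104 and 0.0478 ± 0.00181 in cortex, olfactory bulb and cerebellum (SD, n = 3 each).

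The bins of Csmd2 exceeded their neighbours by 0.0149 ± 0.00135, 0.0338 ± 0.00116 and 0.0260 ± 0.00144 in the same order, most in olfactory bulb, with no overlap between the tissues. For Csmd1 the sign differed by tissue, with 0.0138 ± 0.00181 in cortex, -0.0353 ± 0.00430 in the olfactory bulb and 0.00128 ± 0.00247 in the cerebellum, the last with libraries on both sides of 0. Of the neighbours of Csmd1, that on its 3′ side, chr8:14000001-15000000, was the higher in olfactory bulb. Its 5hmC of 0.239 ± 0.00377 (SD, n = 3) ranked 31st there and was above the 0.214 ± 0.0120 (SD, n = 3) of cortex, opposite to the bins of Csmd1.

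**Figure D4:**
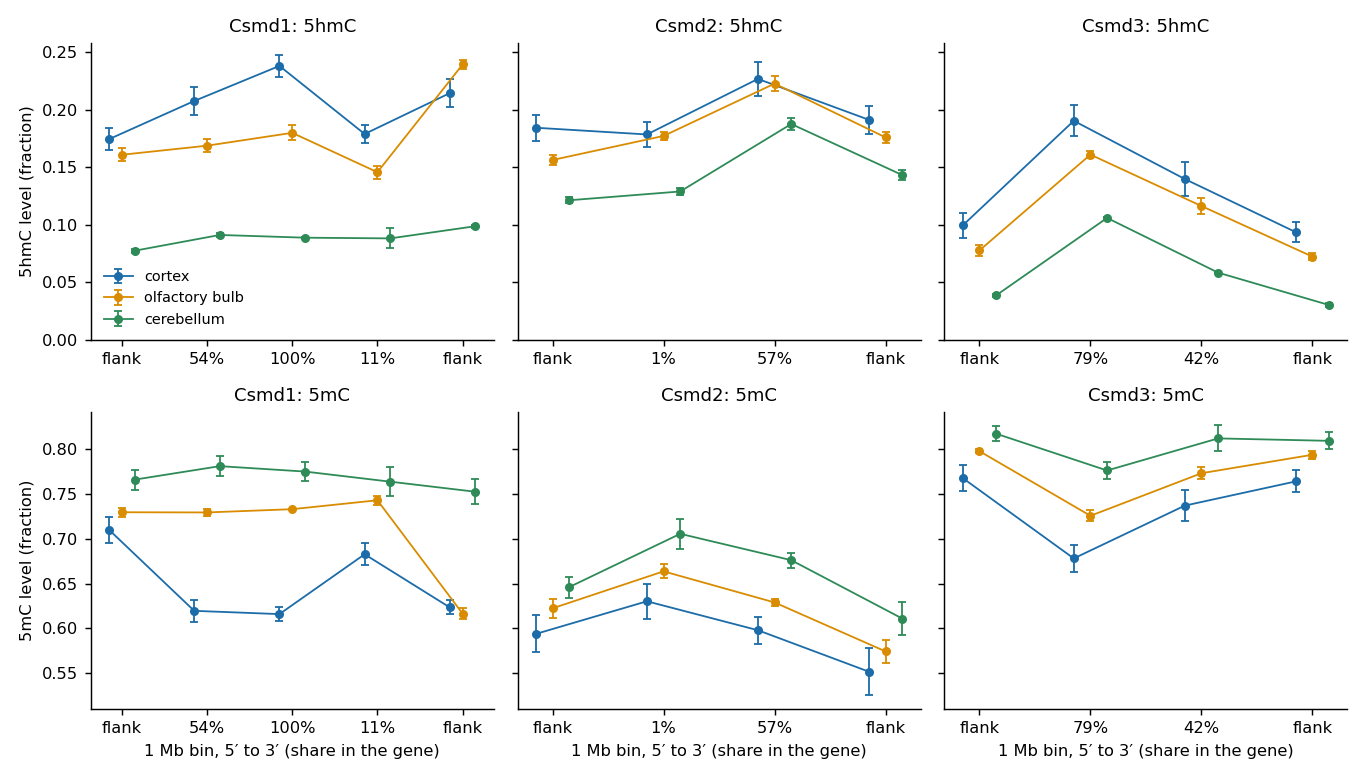
5hmC (top) and 5mC (bottom) level as a fraction in each 1 Mb bin of the Csmd genes and in the bin on either side, ordered 5′ to 3′, with the share of the bin inside the gene on the horizontal axis. Points are tissue means and error bars SDs. The bins of Csmd3 stand above their neighbours in 5hmC in each tissue, and its bin with the start stands below them in 5mC.

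From cortex to cerebellum, the sum of 5mC and 5hmC over the 1 Mb bins differed less than either mark. Over the same 1 Mb bins the sum for Csmd1 was 0.848 ± 0.0141 in cortex, 0.900 ± 0.00661 in the olfactory bulb and 0.863 ± 0.0130 in the cerebellum. For Csmd2 it was 0.817 ± 0.0216, 0.846 ± 0.00745 and 0.849 ± 0.0131, and for Csmd3 0.873 ± 0.0208, 0.888 ± 0.00497 and 0.876 ± 0.0122 in the same order. Over these 1 Mb bins the sums of Csmd3 lay within their errors of each other. Those of Csmd2 were above cortex beyond the error, by 0.0296 ± 0.0229 in olfactory bulb and 0.0324 ± 0.0253 in cerebellum. With 5mC from the 100 kb bins of Csmd2, the cerebellum minus cortex difference was 0.121 in 5mC, beside -0.0444 in 5hmC. For Csmd2 the smaller difference of the sum thus holds for the 1 Mb bins only, of which 1 lies 1.21% in the gene. Over the 1 Mb bins the sum of Csmd1 was higher in olfactory bulb than in cortex by 0.0524 ± 0.0156. It was lower in cerebellum than in olfactory bulb, with a difference of -0.0373 ± 0.0146. Its cerebellum minus cortex difference of 0.0151 ± 0.0192 was within its error. With 5mC from the 100 kb bins of Csmd1, that difference was 0.172 ± 0.0152 in 5mC, beside -0.119 ± 0.0101 in 5hmC. The rise in 5mC was then larger than the fall in 5hmC beyond these errors. The sums join different libraries, since no library was read by both assays.

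The share of 5hmC in that sum fell from cortex to cerebellum in each gene. It was 24.5%, 18.3% and 10.3% for Csmd1 in cortex, olfactory bulb and cerebellum, 24.8%, 23.6% and 18.6% for Csmd2 and 18.9%, 15.6% and 9.36% for Csmd3. Csmd2 thus held the largest share of the 3 genes in cerebellum. The share there was 21.7% in its bin chr4:128000001-129000000 and 15.4% in its other bin, of which 1.21% lies in the gene. The neighbouring bins, with no base of Csmd2, had 19.0% on the 3′ side and 15.8% on the 5′ side. The high share is therefore not particular to the gene.

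Among the 230 protein-coding genes of at least 500 kb, Csmd1 had the 3rd largest 5mC difference both between olfactory bulb and cortex and between cerebellum and cortex, where the median gene differed by 0.0371 and 0.0828. Csmd2 ranked 36th and 40th and Csmd3 77th and 63rd in these. Between cerebellum and olfactory bulb the genes ranked 107th, 83rd and 75th. In cortex itself Csmd1 had the 21st lowest 5mC of these genes, Csmd2 the 47th lowest and Csmd3 the 130th lowest.

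In 5hmC the long genes ranked otherwise. Csmd1 had the 16th largest fall from cortex to olfactory bulb and the 15th largest from cortex to cerebellum, Csmd3 the 63rd and the 100th largest, and Csmd2 only the 171st and the 185th largest. In cerebellum Csmd2 had the 35th highest 5hmC of the long genes, while Csmd1 was 149th and Csmd3 161st from the top.

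**Figure D5:**
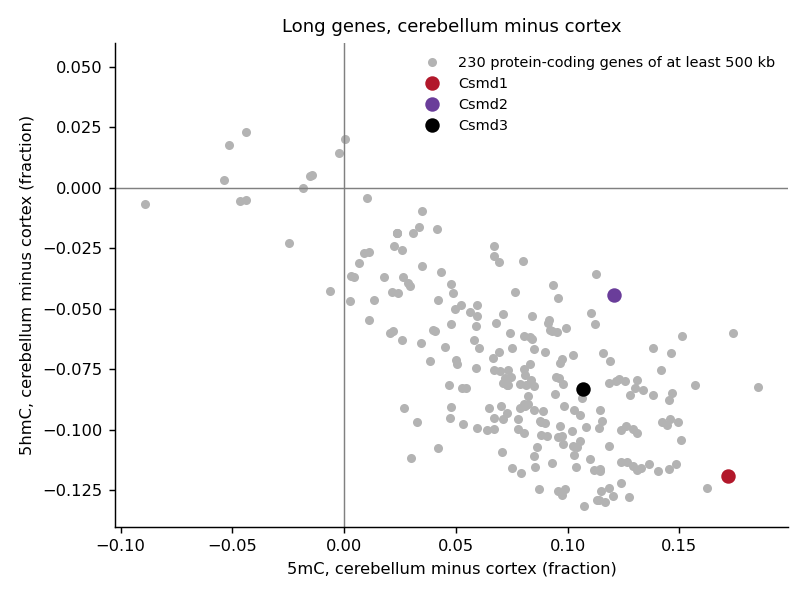
Cerebellum minus cortex in 5mC (horizontal) and 5hmC (vertical), as differences in fraction, for the 230 protein-coding genes of at least 500 kb. Each point is 1 gene and the Csmd genes are coloured. Csmd1 lies far to the right and low, at 0.172 and -0.119, and Csmd2 at 0.121 and -0.0444.

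The long genes most like each member were those with the smallest Euclidean distance of 5mC over the 7 oxBS-seq libraries. For Csmd1 they were Foxp1, a forkhead transcription factor, at a distance of 0.0322, Ptprd, a receptor tyrosine phosphatase of neurons, at 0.0391, and Rasgef1b, an exchange factor of small GTPases, at 0.0511, where the median over 229 genes was 0.164. Foxp1 had 5mC levels of 0.604, 0.729 and 0.755 in cortex, olfactory bulb and cerebellum. For Csmd2 they were Mast4, a protein kinase, at 0.0194, Rasgef1b at 0.0292 and Kcnma1, a potassium channel, at 0.0318, with a median of 0.130. For Csmd3 they were Exoc4, an exocyst subunit, at 0.0127, Macrod2 at 0.0147 and Nkain2 at 0.0170, with a median of 0.0984.

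Likeness in 5mC did not carry over to 5hmC in each case. Mast4 had a 5hmC of 0.0776 in cerebellum, less than the 0.158 of Csmd2, and Exoc4 had 0.236 in cortex, more than the 0.165 of Csmd3. Ptprd had 0.187, 0.125 and 0.0886 in cortex, olfactory bulb and cerebellum, beside 0.208, 0.165 and 0.0892 for Csmd1, and so was lower than Csmd1 in cortex and olfactory bulb.

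A list of 26 related genes covered other CUB or sushi domain proteins and the complement components, regulators and receptors. In olfactory bulb against cortex 6 of them passed as higher in limma over all 21718 genes (26.4% of all genes) and 0 as lower (0.866%). In cerebellum against cortex 6 passed as higher (55.1%) and 0 as lower (4.26%). In cerebellum against olfactory bulb 4 passed as higher (18%) and 3 as lower (7.69%). At an unadjusted p below 0.05 in limma the counts were 13, 9 and 5 as higher and 0, 0 and 5 as lower. The shares of all genes at that threshold were not computed, so nothing is read from these counts. The median change of the list on the log2(level/(1 − level)) scale was 0.24, 0.20 and -0.05. The median 100 kb bin changed by 0.22, 0.43 and 0.19, a measure over bins and not over genes. The median over all genes is not given here, so nothing is read from the difference.

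The counts of the list depend on single libraries and on scaling. Without the first olfactory bulb library 0 genes passed as higher in limma in olfactory bulb against cortex, where the share of all genes also fell, to 4.31%. Without the second, 2 passed as higher in cerebellum against olfactory bulb, where 7.43% of all genes did. C1qa, C1qb and C1qc, the chains of the C1q molecule, share 1 bin and 1 value and so count once, both among the 6 higher calls in olfactory bulb against cortex and as the 3 lower calls in cerebellum against olfactory bulb. They passed as lower in cerebellum against olfactory bulb, with -0.32 ± 0.12 (SE) on the log2(level/(1 − level)) scale and an adjusted p of 0.0487 in limma, and 0 passed without any 1 library other than the third of cortex. With each library centred, 4 genes passed as higher and 10 as lower in cerebellum against cortex, where 15.3% and 26.5% of all genes did, and 4 and 11 in cerebellum against olfactory bulb, where 13.7% and 21.9% did.

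By class, 3, 4 and 2 of the 6 complement regulators passed as higher in the 3 comparisons, beside the 26.4%, 55.1% and 18% of all genes. Of the 8 CUB or sushi domain proteins 0, 2 and 2 passed as higher. Of the 8 complement components 3, 0 and 0 did, all of them C1q chains of the shared bin. Of the 4 complement receptors 0 passed in each comparison. Cd46 and Cr1l lie side by side and share a bin, so their calls are not separate. They are the 2 regulators that passed in cerebellum against olfactory bulb and are among the 4 in cerebellum against cortex. Cd55, the decay-accelerating factor of complement, had a 5mC of 0.725 ± 0.0182 (SD, n = 3) in the cortex, 0.766 ± 0.0108 (SD, n = 2) in the olfactory bulb and 0.780 ± 0.000636 (SD, n = 2) in the cerebellum. It passed in both comparisons with cortex, with adjusted p of 0.0357 and 0.00123 in limma. On the log2(level/(1 − level)) scale Cd55 was higher by 0.31 and 0.43, beside 0.22 and 0.43 for the median 100 kb bin. Its change in cerebellum against cortex was thus no larger than that of the median bin. C3, the central component of the cascade, had 0.586 ± 0.0125, 0.616 ± 0.0102 and 0.624 ± 0.00468 in cortex, olfactory bulb and cerebellum and passed in none.

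The CUB or sushi domain proteins that passed, named after their values were seen, were Susd1 and Susd4. On the log2(level/(1 − level)) scale they were higher by 0.57 and 0.63 in cerebellum against cortex, with adjusted p in limma of 2.84e-05 and 5.29e-06, and by 0.49 and 0.71 in cerebellum against olfactory bulb, with 0.00199 and 1.03e-05. The median 100 kb bin was higher by 0.43 and 0.19 in these 2 comparisons. Sez6 and Sez6l, neuronal proteins that also carry CUB and sushi domains, passed in no comparison. Sez6 had 0.439 ± 0.0370, 0.428 ± 0.0235 and 0.477 ± 0.00340 in cortex, olfactory bulb and cerebellum, and Sez6l had 0.507 ± 0.0141, 0.518 ± 0.00542 and 0.503 ± 0.0226. The adjusted p in limma was 0.692, 0.0902 and 0.0925 for Sez6 in the comparisons as ordered above and 0.668, 0.869 and 0.655 for Sez6l. Sez6, of 48249 bases, fills less of its 1 bin than Sez6l, of 158035 bases, fills of its 2, so the value of Sez6 is in large part that of its surroundings.

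Checks on the tissues used 18 genes that mark neurons of each tissue, read as the 5mC of the bins that hold them. The tissue of the label had the lowest 5mC for 4 of 5 cortex genes, 4 of 6 olfactory bulb genes and 6 of 7 cerebellum genes. Dlx1 and Dlx2 share 1 value, as do Zic1 and Zic4, and with each pair counted once it was 3 of 5 for olfactory bulb and 5 of 6 for cerebellum. The share of all genes with their lowest 5mC in each tissue was not computed. Over all bins cortex had the lowest mean, 0.677 beside 0.707 in olfactory bulb and 0.731 in cerebellum. The cortex count therefore says little on its own. Pearson's r over bins between libraries of a tissue was 0.947 to 0.982 for 5mC and 0.994 to 0.998 for 5hmC.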

How the data were processed

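The authors mapped oxBS-seq and TAB-seq reads uniquely to mm10 with Bismark (version not given in the sources used here) and deposited a fraction from 0 to 1 per bin and library. The way in which a bin's fraction was averaged is not given in the sources used here, and neither is its depth, so no interval could be set. A bin averages over genes, repeats and intergenic sequence, and a gene shorter than a bin shares its value with its neighbours. The 16 libraries with levels, of 22 samples, were grouped by the tissue in their labels. The 6 RNA-seq samples were not analysed here. The labels call the replicates technical and the study's methods give independent mice, so p-values measure the spread between these samples, which may be partly technical.

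Gene spans came from GENCODE M21 and sequences from the RefSeq assembly GRCm38, the build of the bins. The level of a gene was the mean over every bin it overlaps. Bins with a level of 0 or 1 in any library were left out, which kept 25664 of 26327 bins for 5mC and 2581 of 2641 for 5hmC. limma 3.58.1 in R 4.3.3 was fitted to log2(level/(1 − level)) over all bins, or over all 21718 coding genes for the related list, with Benjamini-Hochberg adjustment and a threshold of 0.05, and was tested on simulated data. Only in an alternative fit that kept all bins were levels limited to 0.001 and 0.999 before the logarithm. Other steps used Python 3.11.15, numpy 2.4.6, pandas 2.3.3 and matplotlib 3.10.9.

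The members, the related list, the tissue markers and the tests were chosen with earlier results of these data known. Named bins were, per gene, those with the highest and lowest 5mC and the largest and smallest difference for each pair of tissues. Of the related list, Sez6, Sez6l, C3 and Cd55 were named with values, as were genes alone in their direction. By the deviations from the tissue means, same-numbered 5hmC libraries of olfactory bulb and cortex were weakly correlated, with r of 0.126 to 0.344 over 3 pairs. No other pair of tissues had a lowest r as high. The errors of the differences do not use the replicate numbers.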

Additional observations from a re-analysis of the deposited data

How the results depend on the processing

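Of 579 alternative values, 495 had the same direction and call or moved by less than the error. Depth is unknown, so what it limits cannot be stated, and with 2 libraries in each of 2 tissues the SDs are themselves uncertain. The cause of a change was not tested. Centred on library medians, the 5mC differences of olfactory bulb minus cortex, cerebellum minus cortex and cerebellum minus olfactory bulb were 0.0918, 0.115 and 0.0234 for Csmd1, 0.0323, 0.0642 and 0.0319 for Csmd2 and 0.0154, 0.0505 and 0.0350 for Csmd3. Those of 5hmC were -0.0206, -0.0373 and -0.0167 for Csmd1, 0.0201, 0.0372 and 0.0170 for Csmd2 and -0.00361, -0.00135 and 0.00226 for Csmd3. All those of Csmd2 and the last of Csmd3 changed sign. The first of Csmd2 had been within its error before centring, at -0.00268 ± 0.0137, and the last of Csmd3 was within its error after it. Over 1 Mb bins at least 50% covered, 5hmC of Csmd1 differed by -0.133 (cerebellum minus cortex) and -0.0844 (cerebellum minus olfactory bulb) and of Csmd2 by -0.0351 (cerebellum minus olfactory bulb), and weighted by the bases inside the gene by -0.135, -0.0845 and -0.0354. With bins wholly inside the gene, Csmd2 5mC in olfactory bulb minus cortex was 0.0751. Gene minus flanks was then -0.0307 (olfactory bulb) and -0.0161 (cerebellum) for Csmd1, -0.00819, 0.0546 and 0.0738 (cortex, olfactory bulb, cerebellum) for Csmd2 and -0.0172 (cerebellum) for Csmd3, and 5′ minus 3′ part was -0.0545, -0.0278 and -0.00322 for Csmd1, -0.0203, -0.0122 and -0.00948 for Csmd2 and -0.0209, -0.0129 and -0.0278 for Csmd3. With flanks of 1 Mb, gene minus flanks was -0.0868, -0.00378 and 0.0110 for Csmd1, the last reversed, and 0.0301, 0.0753 and 0.104 for Csmd2. Without flank bins that hold a coding gene it was -0.0516, -0.0315 and -0.0196 for Csmd2, the last 2 reversed. From the first and last 300 kb, 5′ minus 3′ was -0.0853 (cortex) and -0.0514 (olfactory bulb) for Csmd1 and -0.102, -0.0964 and -0.0775 for Csmd3. With 5mC from the gene's own 100 kb bins, sums were 0.813 for Csmd1 in cortex, 0.894 and 0.909 for Csmd2 in olfactory bulb and cerebellum and 0.845 and 0.866 for Csmd3 in cortex and olfactory bulb.

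Averaged into 1 Mb bins, 7, 7 and 6 of 7 bins passed as higher in 5mC (60.8%, 82.5% and 49.8% of all 1 Mb bins), and centred, 17 of 38 bins passed as higher in cerebellum against olfactory bulb. Centred 5hmC bins passed as higher and lower in 2 and 2, 2 and 4, and 3 and 3 cases, beside the shares of all bins given above. Leaving out 1 library gave 16 to 32 bins for 5mC higher in cerebellum than in olfactory bulb, 24 to 35 in olfactory bulb than in cortex and 38 in cerebellum than in cortex. For the related list, alternatives chosen after seeing the data gave, centred, 3 higher and 1 lower in olfactory bulb against cortex (3.56% and 4.73% of all genes), 4 higher and 10 lower in cerebellum against cortex (15.3% and 26.5% of all genes) and 4 higher and 11 lower in cerebellum against olfactory bulb (13.7% and 21.9%). Leaving out 1 library gave 0 to 9 higher in olfactory bulb against cortex and 2 to 5 higher and 0 to 4 lower in cerebellum against olfactory bulb. Shares of all genes moved too, and without the first cortex library 19.3% passed as higher in olfactory bulb against cortex, beside 26.4% with all libraries. The mean r of same-numbered libraries ran from -0.160 to 0.240 over the pairs of tissues and assays, highest for 5hmC in olfactory bulb and cortex. With the replicate block of the labels 32, 38 and 32 of the 38 5mC bins passed as higher (29.2%, 68.2% and 43.5% of all bins). With that of the library names it was 34, 38 and 24 (50.2%, 74.8% and 32.6%). The count of 5hmC bins that passed as lower was 5, 7 and 7 with the block as without it (70.2%, 97.9% and 92.2% of all bins with the block). The block of the library names could not be fitted for gene differences between cerebellum and olfactory bulb, which share 1 number.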
